A study of Drosophila melanogaster with 42 samples.

Results

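The regions described here are the stretches of chromatin listed for MSL2 on mononucleosomal fragments in Drosophila melanogaster embryos, compared between 3-4 h and 11-12 h of development. All regions of both deposited lists were taken, 247 at 3-4 h and 319 at 11-12 h, 566 of the 18571 regions in the 12 lists of the series. A region was called kept where it overlapped a region of the other stage by at least 1 bp, lost where it was listed at 3-4 h only, and gained where it was listed at 11-12 h only. Each stage was measured by chromatin immunoprecipitation and sequencing in 3 samples of whole embryos, in stages 5 to 8 and stages 13 to 15. Formaldehyde-fixed chromatin was cut with micrococcal nuclease (MNase), at 0.9 units per g of embryos in the early group and 2.9 units per g in the late group, doses that were set to reach a like degree of digestion, so stage and enzyme dose cannot be told apart. The labels used here give no genotype, strain or sex for the embryos. Other samples gave lists for MOF and for H4K16ac (histone H4 with an acetyl group on lysine 16) on MNase chromatin, and for H4K16ac and H3K36me3 (trimethylated lysine 36 of histone H3) on sonicated chromatin.

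MSL2 is made in males and completes the dosage compensation complex, which raises transcription from the single X chromosome of males. The complex holds the acetyltransferase MOF and one of the noncoding roX RNAs, enters the X at high-affinity sites and is found over the bodies of active genes, where MOF acetylates H4K16 and H3K36me3 marks elongating transcription. Subnucleosomal fragments are shorter than a nucleosome and tend to mark direct contacts of a protein with DNA, whereas mononucleosomal fragments report the nucleosomes around them.

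Each list stands for all replicates of its group and gives a chromosome, a start and an end, with no score, height or read count. There is therefore no replicate error, the depth is unknown, and no difference between the stages was tested. Ranges in brackets are 95% Wilson intervals for shares and 95% order-statistic intervals for medians, and they cover counting over regions only. Where a list has no region, the protein was not shown to be absent. Positions are on dm6, counted from 1.

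On the X, 213 of the 238 regions of 3-4 h were kept (89.5%, 84.95 to 92.8), and 25 were lost. Of the 310 regions of 11-12 h, 229 had a counterpart at 3-4 h (73.9%, 68.7 to 78.45), and 81 were gained. With all 238 early regions set against the 238 widest late ones, 81.1% of the early regions were kept and 85.3% of the late ones found early. Only late regions were dropped here, so the early share could only fall. Widths under 3 kb were held by 53 of 81 gained and 30 of 229 late kept regions, so the dropping fell more on gained ones. No conclusion is drawn from this order of the 2 shares. The full late list held the larger number of regions, most of which lay where the early list already had one. In length, the regions covered 1176 kb at 3-4 h, 5.00% of the chromosome, and 1290 kb at 11-12 h, 5.48%. They shared 940.8 kb, which is 80.0% of the early and 72.9% of the late length. Of the 349.0 kb listed at 11-12 h only, 223.3 kb (64.0%) lay in gained regions and 125.7 kb was added at kept ones. Of the 235.2 kb listed at 3-4 h only, 70.15 kb (29.8%) lay in lost regions and 165.0 kb (70.2%) was trimmed from kept ones. Length present at 11-12 h only was thus mostly in new places, and length present at 3-4 h only mostly at places that were kept.

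The kept regions formed 210 loci, each a set of overlapping early and late regions. At 192 of them 1 early region faced 1 late region. At 15 loci a single early region faced 2 or 3 late ones, here called split, and at 1 locus a pair of early regions faced a single late one, here called merged. At 2 loci a pair of early regions faced a pair of late ones. Splitting was the more common of the 2 forms in these lists. Split loci covered 166.7 kb at 3-4 h and 130.5 kb at 11-12 h, 0.783 times as much, and 14 of the 15 were shorter at 11-12 h. The 192 loci with 1 region at each stage covered 909.5 kb and 910.2 kb, a ratio of 1.00. These sets are unlike in width, with early medians of 12184 bp for split loci and 4278 bp for the 192. Of the 42 among the 192 that were over 6 kb at 3-4 h, 35 were narrower late as well. A split locus needs an early region that spans a late gap, so its late shortening is in part set by the class.

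Most of the widest early regions were listed in pieces later. At 3-4 h 12 regions were wider than 10 kb, and at 11-12 h none was, the widest measuring 9.78 kb. Of those 12, 9 were split, 2 faced a single late region and 1 belonged to a locus with a pair at both stages. Among all 213 kept early regions, 15 were split. A wide region has more bases over which to face several others. Over lva, which encodes a Golgi-associated protein, and its neighbour Vap33, the early region of 16.8 kb (X 3948557 to 3965384) faced late regions of 4.38 kb and 3.24 kb, together 7.62 kb. Over Tao, a kinase of the Hippo pathway, and car, 12.8 kb faced 7.64 kb. The other wide split loci named here kept more of their length. Over PhKgamma, the catalytic subunit of phosphorylase kinase, 14.9 kb faced 12.5 kb, and over tay 14.3 kb faced 12.1 kb. At slpr, a kinase of the JNK pathway, 10.4 kb faced 10.2 kb. Over pcx, a membrane protein of the Notch pathway, the early region of 14.3 kb (X 2226994 to 2241275) faced 3 late regions of 11.1 kb together. The early region of 12.2 kb over tty, a chloride channel gene, also faced 3, of 9.82 kb together. The exception in direction among split loci was Kap3, where 2.00 kb at 3-4 h faced 5.83 kb at 11-12 h.

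The gaps that divided split regions were short and overlapped late regions of MOF and both histone marks. There were 17 gaps, from 11 to 1443 bp with a median of 616 bp, and 14 were under 1 kb. At 11-12 h all 17 overlapped MOF, all 17 H4K16ac on MNase chromatin and all 17 H3K36me3, each by at least 1 bp. Of all early MSL2 regions on the X, 99.2%, 100% and 95.4% overlapped these late lists, so the counts were near the share of any such region. When regions within 1 kb of each other were joined before the comparison, 5 split loci were left, 15 joined early regions and 6 joined late regions were wider than 10 kb, and the widest measured 16.8 and 13.4 kb. The number of split loci thus depends on how close neighbouring calls must lie to count as 1.

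**Figure D1:**
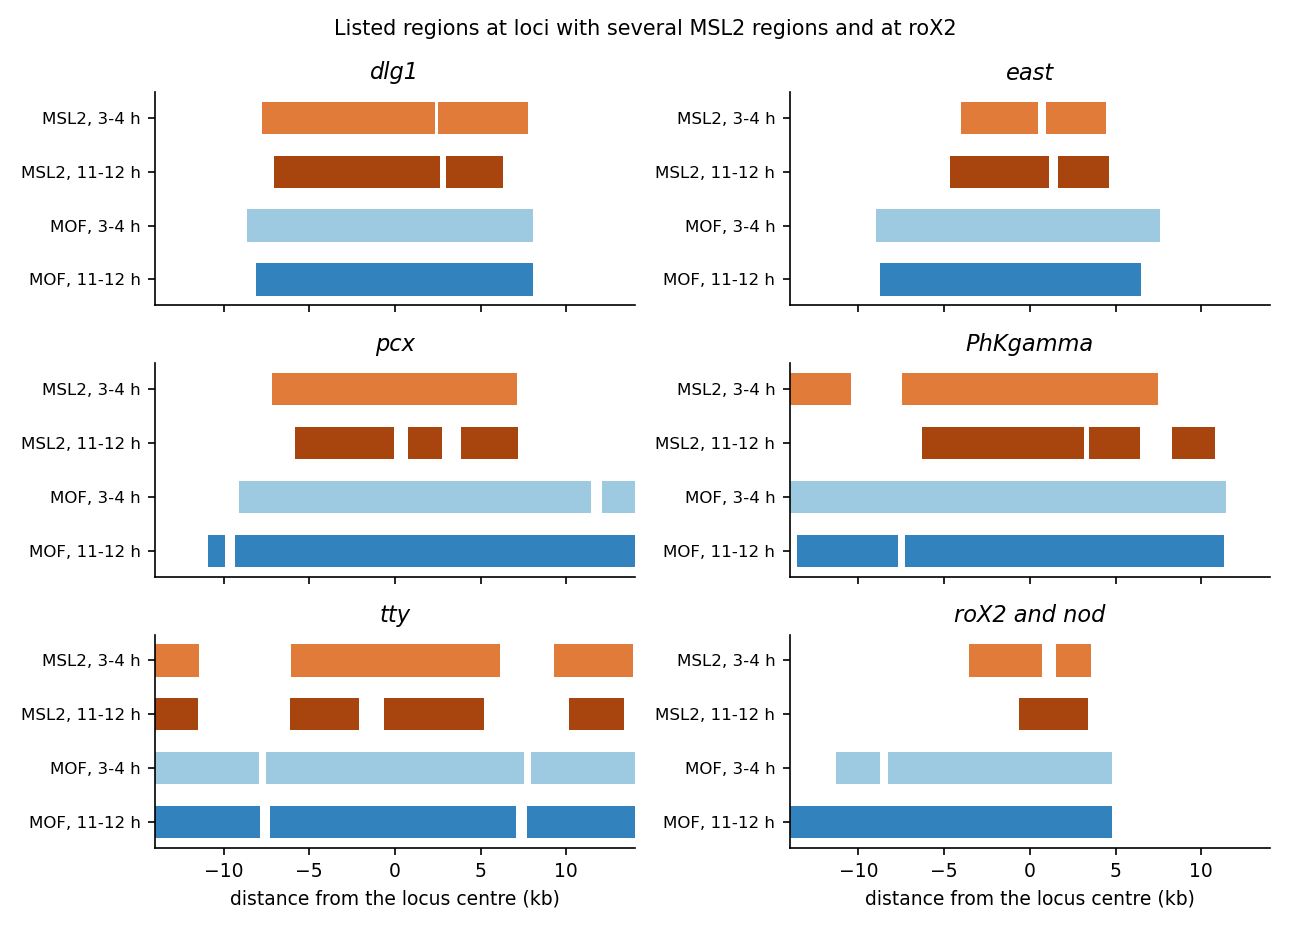
Bars are listed regions of MSL2 (orange) and MOF (blue) at 3-4 h and 11-12 h, drawn against the distance in kb from the centre of the locus, for the 5 loci with the most MSL2 regions and for the locus of roX2; bars that reach the frame go on beyond it. At pcx and tty 1 early MSL2 region faces 3 late ones (a gap of 11 bp at tty is too short to see), while MOF spans the gaps, and at roX2 the single late MSL2 region overlaps both early ones.

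The merged locus was that of roX2 and its neighbour nod, a kinesin-like protein of meiosis. The early regions there measured 4.29 kb (X 11578013 to 11582297) and 2.00 kb (X 11583106 to 11585105). The late one measured 4.07 kb (X 11580907 to 11584976) and began 474 bp beyond roX2, on the side of higher coordinates. It joined the early pair across their gap of 808 bp, and the part of the early region over roX2 was not listed at 11-12 h. For roX1 the nearest MSL2 region was 70.0 kb away at 3-4 h and 70.1 kb away at 11-12 h, over Tlk in both lists. The loci with a pair at both stages were dlg1, a scaffold of septate junctions, with 15.3 kb at 3-4 h and 13.0 kb at 11-12 h, and east, a nuclear protein, with 7.98 and 8.75 kb.

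Among the 192 loci with 1 region at each stage, position was largely the same and width went both ways. The median locus had 81.5% of its joint length in common, and the midpoint lay within 500 bp of its early place at 141 of 192 (73.4%, 66.8 to 79.2) and over 1 kb away at 21. The late region was narrower at 93 loci (48.4%, 41.5 to 55.5), wider at 94 (49.0%, 42.0 to 56.0) and of the same width at 5. The counts in the 2 directions were thus nearly equal. Among the larger differences, the late region was at least 1.5 times as wide as the early one at 25 loci, and the early one at least 1.5 times as wide as the late one at 14. The locus with the largest ratio was rictor, a subunit of TOR complex 2, with 2.00 kb at 3-4 h and 6.50 kb at 11-12 h. It was followed by mxc, a component of histone locus bodies, with 2.00 and 6.03 kb, and by arm, the fly beta-catenin, with 2.00 and 4.68 kb (X 1891768 to 1896443). Sec16, which organises endoplasmic reticulum exit sites, lay at the other end. Its 3 early regions of 2.50, 2.00 and 7.66 kb faced 1 late region of 2.00 kb (X 12606523 to 12608522), and the first 2 of them counted as lost. Alms1a had 8.99 kb at 3-4 h and 3.94 kb at 11-12 h. These loci, from rictor on, were chosen after their values were seen. At CG34408 the region measured 10.7 and 8.97 kb, and at pcm, the cytoplasmic 5'-to-3' exoribonuclease, 9.40 and 9.78 kb.

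Sorted by their early width, the 30 narrowest single loci, under 3 kb, had a median of 2000 bp at 3-4 h and 3129 bp at 11-12 h, and 22 of them were wider late. The 42 over 6 kb had medians of 7848 and 6514 bp, and 35 of them were narrower late. No region is listed under 2000 bp, so a region at that width can differ in 1 direction only, and the same loci were also sorted by their late width. Then the 21 under 3 kb had medians of 3005 bp early and 2000 bp late, with 14 narrower late, and the 46 over 6 kb had medians of 6418 and 6848 bp, with 23 wider and 23 narrower late. The narrow end thus turned round with the sorting, and the wide end did so in part.

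**Figure D2:**
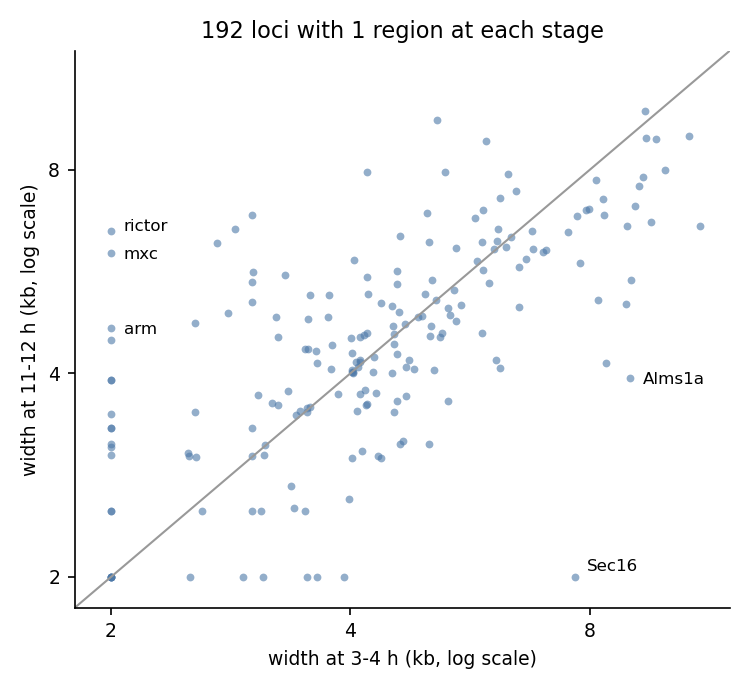
Each point is 1 of the 192 X loci with a single MSL2 region at both stages, with its width at 3-4 h on the x axis and at 11-12 h on the y axis (kb, log scales); the line marks equal width. Points lie on both sides of the line, 94 above it and 93 below, with rictor, mxc and arm at the early minimum of 2.00 kb and Sec16 far below the line.

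Gained and lost regions were narrower than kept ones. The median width was 4509 bp (4169 to 4698) for kept regions at 3-4 h and 4344 bp (4094 to 4594) at 11-12 h, against 2515 bp (2500 to 2590) for gained and 2000 bp (2000 to 2503) for lost regions. The minimum of 2000 bp was met by 28 of 81 gained (34.6%, 25.1 to 45.4) and 14 of 25 lost regions (56.0%, 37.1 to 73.3), against 21 of 213 kept regions at 3-4 h (9.86%, 6.54 to 14.6) and 18 of 229 at 11-12 h (7.86%, 5.03 to 12.1). The share at the smallest width that the lists hold was thus the larger one for regions listed at 1 stage. A wide region has more bases with which to meet another, so width and class are not independent.

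**Figure D3:**
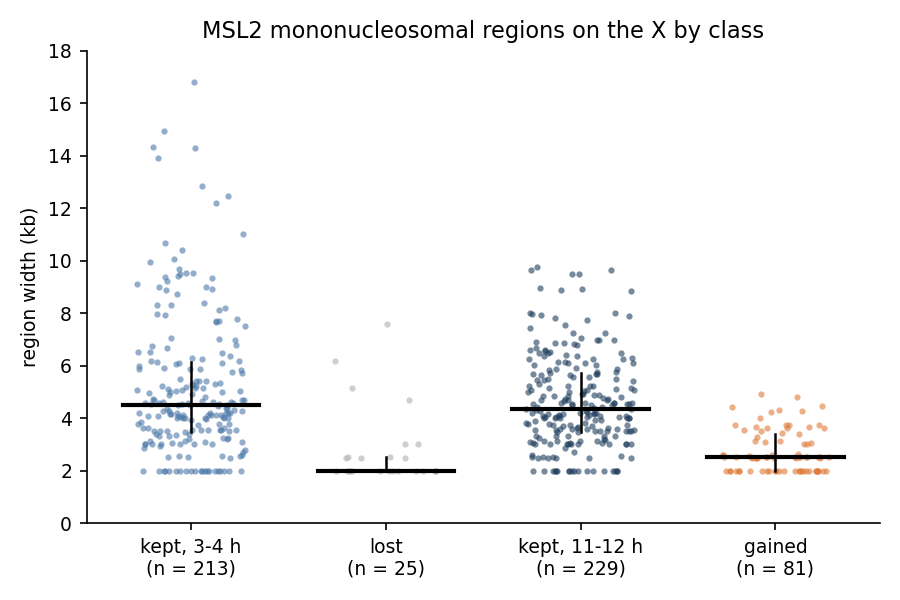
Points are MSL2 regions on the X by class, with their width in kb on the y axis; the thick bar is the median and the thin bar spans the quartiles. The widest gained region measures 4.93 kb, and regions over 10 kb stand in the kept class of 3-4 h alone.

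The 10 widest gained regions lay over genes of varied function. A pair of them, 4.93 kb (X 6765138 to 6770067) and 4.31 kb, lay side by side over sov, a zinc finger protein of heterochromatin. One of 4.81 kb (X 13727383 to 13732192) lay over g, the delta subunit of adaptor complex 3 and an eye colour gene, and one of 4.45 kb over cyr. At Pdha, the alpha subunit of pyruvate dehydrogenase, 4.41 kb was gained, at Klp10A, a microtubule-depolymerising kinesin, 4.29 kb, and at Ptp4E, a receptor tyrosine phosphatase, 4.22 kb. The others measured 4.00 kb over asRNA:CR44054, 3.74 kb over goe and 3.73 kb over mei-41, the fly ATR kinase. Narrower ones, picked here after the list was seen, included those over Scamp with 3.10 kb, Moe, the fly moesin, with 2.53 kb, AP-1gamma, an adaptor subunit, and betaCOP, a coat protein, with 2.52 kb each, and Arp2, an actin nucleator, with 2.50 kb.

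Of the lost regions, the widest measured 7.58 kb over CG2186 (X 10859919 to 10867496), 6.16 kb over lncRNA:CR32773 and the transcription factor gene Usf, and 5.17 kb over Chsy, a chondroitin synthase. A second one of 2.50 kb lay over Chsy as well. Next came 4.68 kb over bif, an actin-binding protein, 3.03 kb over Vav, a guanine nucleotide exchange factor, and 3.03 kb over mys, the beta subunit of the position-specific integrins. Regions of about 2.50 kb were lost over CG2889, AP-1-2beta, Sec16 and wisp, a cytoplasmic poly(A) polymerase. The other 14 measured 2.00 kb each, and among them were those over ovo, a germline transcription factor, nej, the CBP acetyltransferase, Smr, a corepressor, and beta-Spec. The regions over CG2186 and bif and the wider one over Chsy held a subnucleosomal MSL2 peak of 11-12 h, so MSL2 was still listed inside them. Lost regions were thus few and, past the first few, narrow.

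Lost regions lay closer to a region of the other stage than gained ones. The median distance was 3.71 kb (2399 to 7552 bp) for lost and 9.40 kb (6840 to 15460 bp) for gained regions. Within 5 kb lay 14 of 25 lost (56.0%) and 26 of 81 gained regions (32.1%), and beyond 20 kb lay 3 lost (12.0%) and 24 gained (29.6%). The late list is the denser one, with a median gap of 25.4 kb between neighbouring regions against 46.7 kb at 3-4 h, so a lost region had more neighbours to be near. Some lost and gained regions were neighbours within a gene; the 2 described here were chosen after their values were seen. Over sw, the dynein intermediate chain gene, the early region ended at X 20232999 and the late one began at X 20233037, with 37 bp between them. Over elav, the neuronal RNA-binding protein, an early region of 2.00 kb and a late region of 2.00 kb were 649 bp apart. Of the 25 lost regions, 9 touched a protein-coding gene with another MSL2 region at 11-12 h, and of the 81 gained ones 12 touched a gene with one at 3-4 h.

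At the far end, the gained regions most distant from any early region were those over Grip128, a subunit of gamma-tubulin ring complexes, at 112 kb, hfw at 107 kb, Scamp, a secretory carrier protein, at 96.1 kb, a6 at 84.9 kb and Mnt, a partner of Max, at 82.3 kb. The lost regions most distant from any late one were the pair over Chsy, at 118 and 112 kb, followed at some remove by Zdhhc8, a palmitoyltransferase, at 24.1 kb, Gbeta13F, a G protein subunit, at 10.6 kb, and nej at 10.2 kb. Of these lost regions, the wider one over Chsy and that over Zdhhc8 held a subnucleosomal MSL2 peak of 11-12 h, and the others did not. The late region nearest to the pair over Chsy was the one over Grip128, and the early region nearest to that one was the wider of the pair.

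**Figure D4:**
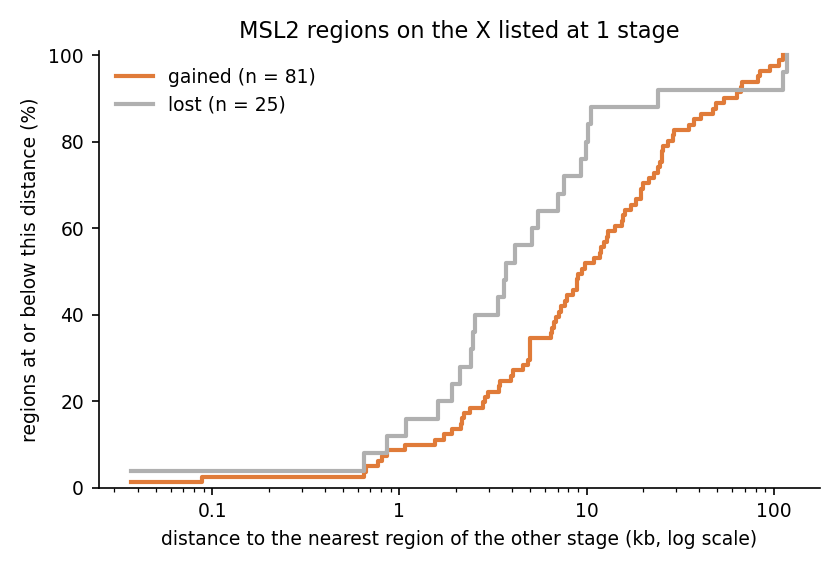
Cumulative share of gained and lost MSL2 regions on the X (y axis, %) by the distance to the nearest region of the other stage (x axis, kb, log scale). The lost curve lies above the gained curve between 1 and 50 kb, with medians of 3.71 and 9.40 kb, and both end above 100 kb.

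Along the chromosome, cut into 5 equal parts, the late list held more regions in each part. There were 45 and 56 in the first part, 50 and 74 in the second, 61 and 65 in the third, 47 and 70 in the fourth, and 35 and 45 in the last. Gained regions numbered 11, 26, 11, 23 and 10 in the same order, and lost ones 4, 3, 10, 5 and 3. The middle part thus had the most early regions and the smallest net difference. The longest stretch of the X between a pair of neighbouring regions was nearly the same at both stages, 1092 kb at 3-4 h (X 21372576 to 22464255, with 42 protein-coding genes wholly inside) and 1074 kb at 11-12 h.

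Readouts that the classes did not use were then laid over the regions. MOF, which was listed over 14.2% of the length of the X at 3-4 h and 15.7% at 11-12 h, was present at both stages at nearly all regions, whatever their class. Among all early MSL2 regions on the X, 99.2% overlapped MOF of 3-4 h and 99.2% MOF of 11-12 h, and among all late ones 98.7% and 99.0%. Gained regions already overlapped a MOF region of 3-4 h in 77 of 81 cases (95.1%, 88.0 to 98.1), and 79 did so at 11-12 h (97.5%, 91.4 to 99.3). Lost regions still overlapped MOF of 11-12 h in 24 of 25 cases (96.0%, 80.5 to 99.3). At places where MSL2 was listed at 1 stage, MOF was thus mostly listed at both. Of the 24 lost regions with late MOF, 14 lay in a MOF region that held another MSL2 region at 11-12 h (58.3%, 38.8 to 75.5). Of the 77 gained regions with early MOF, 54 (70.1%) lay in MOF regions that held no MSL2 region at 3-4 h, and 23 lay in MOF regions that did. Gained regions lay wholly inside MOF in 68 cases at 3-4 h (84.0%, 74.45 to 90.4) and in 79 at 11-12 h (97.5%, 91.4 to 99.3), against 93.0% (88.95 to 95.65) and 92.6% (88.4 to 95.3) of the late kept regions. The 4 gained regions without MOF at 3-4 h lay over dlg1, CG42749, Mnt and shi, the fly dynamin, and of these Mnt and shi had MOF at 11-12 h. These were named after their values were seen.

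H4K16ac, the product of MOF, was listed at 11-12 h over nearly all regions and at 3-4 h over fewer of those gained later. On MNase chromatin the H4K16ac list covered 16.7% of the length of the X at 3-4 h and 32.7% at 11-12 h. On sonicated chromatin it covered 15.7% and 22.7%. H4K16ac of 11-12 h lay over all 310 late regions on MNase chromatin (100%) and over 309 on sonicated chromatin (99.7%). At 3-4 h, MNase H4K16ac lay over 74 of 81 regions that were gained later (91.4%, 83.2 to 95.75) and over 228 of 229 late kept regions (99.6%, 97.6 to 99.9), against 97.4% of all late regions. Sonicated H4K16ac of 3-4 h lay over 65 of 81 gained (80.2%, 70.3 to 87.5) and over 225 of 229 late kept regions (98.3%, 95.6 to 99.3), against 93.5% of all late regions. The share with early H4K16ac was thus the lower one for gained regions in both preparations, and the intervals of the 2 classes did not meet over regions of all widths. Among regions under 3 kb, a limit set after the data were seen, they did meet: on sonicated chromatin 43 of 53 gained (81.1%, 68.6 to 89.4) and 28 of 30 late kept regions (93.3%, 78.7 to 98.2) carried early H4K16ac, and on MNase chromatin 50 of 53 (94.3%, 84.6 to 98.1) and 30 of 30 (100%, 88.65 to 100). Of the lost regions, 23 of 25 carried H4K16ac at 3-4 h in both preparations (92.0%), against 98.3% and 97.5% of all early regions, and all 25 did at 11-12 h (100%). H3K36me3 of 3-4 h lay over 76 of 81 gained regions (93.8%, 86.35 to 97.3) and 220 of 229 late kept ones (96.1%, 92.7 to 97.9), and over 21 of 25 lost ones (84.0%, 65.35 to 93.6), against 95.5% of all late and 94.1% of all early regions. At 11-12 h it lay over 79 gained (97.5%), 223 late kept (97.4%) and 20 lost regions (80.0%, 60.9 to 91.1), against 97.4% of all late and 95.4% of all early regions. Taking MOF, both H4K16ac lists and H3K36me3 of 3-4 h, 63 of the 81 gained regions overlapped all 4, and 3 overlapped none. Singly, MOF lay over 98.7% of all late regions, H4K16ac over 97.4% (MNase) and 93.5% (sonicated), and H3K36me3 over 95.5%. The joint count was not made for late kept or all late regions, so it cannot be read as high or low.

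Subnucleosomal MSL2 peaks, which come from the same samples, lay in few of the gained regions. At 11-12 h they lay in 85 of 229 kept regions (37.1%, 31.1 to 43.5) and in 6 of 81 gained ones (7.41%, 3.44 to 15.2), against 29.4% of all late regions. Those of 3-4 h lay in 92 (40.2%) and 4 (4.94%, 1.94 to 12.0) of them, against 31.0%. At 3-4 h they lay in 93 of 213 kept (43.7%, 37.2 to 50.4) and 6 of 25 lost regions (24.0%, 11.5 to 43.4), against 41.6% of all early regions, and at 11-12 h in 85 (39.9%) and 4 of them, against 37.4%. Width went along with this: late regions with a peak had a median of 4693 bp (n = 91) and those without one 3505 bp (n = 219). Among regions under 3 kb a peak of 11-12 h lay in 2 of 30 kept (6.67%, 1.85 to 21.3) and in 0 of 53 gained regions (interval up to 6.76%), and these intervals overlap. Under 3 kb a peak of 3-4 h lay in 5 of 32 early kept (15.6%, 6.86 to 31.75) and 3 of 19 lost regions (15.8%, 5.52 to 37.6). Peaks of 11-12 h lay in 7 (21.9%) and 1 (5.26%) of them. The 6 gained regions with a peak of 11-12 h included those over g, goe, a6, CG12773 and Atg5. Of the 6, a6 and the region not named here had a peak at 3-4 h too. The other gained regions with a peak of 3-4 h lay over Pdha and Ddx56.

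**Figure D5:**
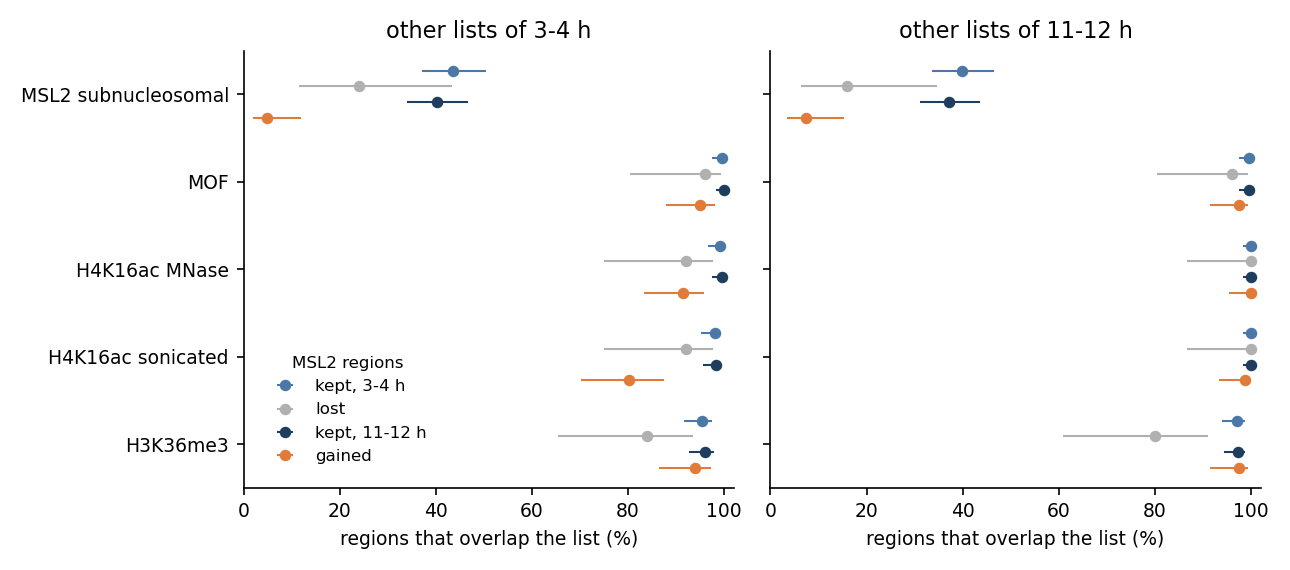
Share of MSL2 regions on the X (x axis, %) that overlap each of 5 other lists of 3-4 h (left) and 11-12 h (right) by at least 1 bp, by class of MSL2 region; bars are 95% Wilson intervals over regions. MOF, H4K16ac and H3K36me3 lie over 80% or more of each class in both panels, and subnucleosomal peaks over 7.41% or fewer of the gained regions.

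Under these regions lay 391 of 2197 protein-coding genes of the X at 3-4 h (17.8%) and 453 at 11-12 h (20.6%). Of them 340 were touched in both lists (15.5%), 113 were gained (5.14%) and 51 were lost (2.32%). Of the 113 gained genes, 98 were reached by a gained region and 15 by the edge of a kept one. Of the 51 lost genes, 26 were under a lost region and 25 were left when a kept region was drawn in or split. The count of lost genes rests on a touch of 1 bp: it was 33 where 50% of the gene or region had to overlap and 21 with the gene of largest overlap per region, and the routes were not counted under these rules. Examples of genes left by a kept region, chosen after their values were seen, are exd, the homeodomain partner of Hox proteins, which was 64.0% covered at 3-4 h, AMPKalpha, 26.9% covered, tko, 22.6%, and Dsor1, the MAP kinase kinase, 21.1%. Gained genes were touched by H3K36me3 of 3-4 h in 109 of 113 cases (96.5%, 91.3 to 98.6) and by MOF of 3-4 h in 109 (96.5%), against 53.8% and 48.5% of all X genes. MOF of 11-12 h touched 111 of them (98.2%) against 54.7% of all X genes. H4K16ac of 3-4 h touched 95.6% of them on MNase chromatin and 90.3% on sonicated chromatin, against 59.1% and 59.2%, and at 11-12 h 100% and 99.1%, against 74.5% and 68.1%. H3K36me3 of 11-12 h touched 110 (97.3%), against 55.5%. Subnucleosomal peaks touched 3 of the gained genes at 3-4 h (2.65%, 0.907 to 7.52) and 10 at 11-12 h (8.85%, 4.88 to 15.5), against 5.05% and 6.78% of all X genes, and of the genes touched at both stages 100 (29.4%) and 97 (28.5%). Genes gained by MSL2 thus lay mostly under MOF and the histone marks at both stages, as did the genes kept, and their share with a subnucleosomal peak was near that of all X genes. The median gene length was 4.91 kb for genes touched at both stages, 3.90 kb for gained, 3.24 kb for lost and 2.52 kb for all X genes, and a longer gene has more bases to be touched. Gained regions lay wholly inside 1 gene body in 57 of 81 cases (70.4%, 59.7 to 79.2) and late kept regions, which are wider, in 103 of 229 (45.0%, 38.7 to 51.45).

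Gene lists of known function were read against those shares. Of 8 genes of the complex and its recruiter, 3 are on the X: roX2, fully covered at 3-4 h and untouched later, roX1, untouched at both, and mof, touched over 0.126 kb and then 0.748 kb. The 5 on autosomes (msl-1, msl-2, msl-3, mle and Clamp) had no MSL2 region. Of 17 X-linked signalling and polarity genes, 9 were touched at both stages and 8 at neither. Those touched included arm, hop, the JAK kinase, with 6.53 kb at 3-4 h and 4.00 kb at 11-12 h, par-6, a polarity protein, covered over its whole 3.75 kb at both stages, and mys, with 6.42 and 2.53 kb. N, dsh, sgg, fu, sog, upd1, csw and if had none. Of 13 patterning and sex determination genes none was touched at 11-12 h, and peb was touched over 0.324 kb at 3-4 h; gt, run, btd, oc, sisA, Sxl, sc, zld, ct, sd, lz and Lim1 were in neither list.

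Of 14 X-linked genes for transcription and nuclear work, 9 stayed under a region, 2 were gained and 3 were never touched. Polr2A, the catalytic core subunit of RNA polymerase II, had 2.81 kb at 3-4 h and 4.92 kb at 11-12 h, and Trf2, a TBP-related factor, 4.20 and 7.95 kb. Nup153, a nucleoporin, had 9.68 and 8.87 kb, and Set2, the H3K36 methyltransferase, 5.86 and 5.20 kb. The gained ones were SMC3, a cohesin subunit, with 3.63 kb at 11-12 h, and e(y)3, a subunit of a chromatin-remodelling complex, with 2.24 kb. Of 16 neural genes, elav and hiw were touched at both stages and Nrg, a cell adhesion molecule, with 3.01 kb, and shi, with 2.00 kb, at 11-12 h only. Of 13 enzyme and pigment genes, rb was touched at both, g and mal were gained and car was lost, while w, v, Zw and Pgd were in neither list. Of 15 ribosomal protein genes only RpL22 was touched, with 1.97 and 2.34 kb. The shares of the lists thus ran from 0 of 13 to 11 of 14 at 11-12 h, around a background of 20.6% that takes no account of gene length or activity.

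Off the X, the early list held 7 autosomal and 2 mitochondrial regions and the late list 8 and 1. A pair of autosomal regions was kept. One lies on 2R (19725551 to 19729190 at 3-4 h and 19724462 to 19727517 at 11-12 h), over a cluster of tRNA genes for glutamate and initiator methionine. The other lies on 3R (7473169 to 7475168 at 3-4 h and 11 bp further on at 11-12 h), over CG1142 and snRNA:7SKa, the 7SK RNA that holds the elongation factor P-TEFb. The 3R region was also listed for MOF and MNase H4K16ac at 11-12 h and for sonicated H4K16ac and H3K36me3 at both stages, and the 2R region for none of these. Among the other autosomal regions, Alh alone was listed for MOF, at 3-4 h. Lost were regions over ed, a cell adhesion molecule, Sema1a, a guidance molecule, hid, an activator of cell death, Alh and lncRNA:Hsromega, the heat shock RNA, the last with 3.73 kb (3R 21299156 to 21302887). Of these lost regions, those over Sema1a and hid held a subnucleosomal MSL2 peak of 11-12 h. Gained were regions over Roc2, Pu, the GTP cyclohydrolase of pteridine synthesis, Mob2, CG6006 and CG14326, and one of 4.66 kb near the end of 3L (41710 to 46365) with no gene in it, 7508 bp from CG43149. Of these gained regions, those over Pu and Mob2 held a subnucleosomal MSL2 peak of 11-12 h too.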

How the data were processed

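The 12 deposited files are lists of regions, each for all replicates of a group, per the labels. Tools named by the submitters' processing notes are HOMER, SAMtools and Bowtie2 2.2.9, with the build dm6 and no roles; how regions were called, and how replicates and inputs entered, is not given in the sources used here. Files hold positions only, counted from 0 at the start, and were read as such.

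Overlap, connected sets, shared length and edge-to-edge distance were computed with Python 3.11.15, numpy 2.4.6, pandas 2.3.3 and scipy 1.17.1, and plots drawn with matplotlib 3.10.9. The code matched a base-by-base count in 20 of 20 simulated lists. Genes came from RefSeq, Release 6, the assembly of dm6; a region was named by the gene it overlaps most, else the nearest. The X was taken as 23.5 Mb, to its last gene or region.

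Named were the 12 widest kept loci, the 10 widest gained and lost regions, the 5 loci with most regions, the 5 most distant gained and lost regions, regions off the X and 7 gene lists; exceptions are marked, and 2 of the widest kept loci are not reported here. Members and lists were chosen with earlier results of these data known. Place within genes by strand and promoter motifs were planned and are not reported, since strand and sequence were not used here. Alternatives changed the overlap, joining, width and gene rules one at a time, and 3 of them were added after the data were seen.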

Additional observations from a re-analysis of the deposited data

How the results depend on the processing

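Of 211 values recomputed under an alternative, 169 stayed within the 95% interval of the reported value or, for counts, within 1.5 times of it. The share of X regions kept went from 89.5% to 84.9% in the widest 50% of each list. It was 81.1% with all early regions set against equally many of the widest late ones. For late regions found early the share went from 73.9% to 65.8% and 85.3%. Against both MSL2 lists of the other stage, a rule added after the data were seen, the 2 shares were 91.2% and 75.2%. With 1-kb joining, split loci numbered 5, merged loci 0, and the median width of late kept regions was 4780 bp; merged loci were 0 with overlap of 50% of the shorter region and 2 with a 1-kb gap allowed. Genes lost numbered 33 where 50% of the gene or region had to overlap; with the gene of largest overlap per region, genes numbered 223 at 3-4 h, 290 at 11-12 h and 21 lost. Gained regions with early sonicated H4K16ac made 67.9% with 50% overlap. The limit of 3 kb was chosen after the data were seen. Under it, subnucleosomal peaks of 3-4 h and 11-12 h lay in 15.6% and 21.9% of early kept regions. They lay in 15.8% and 5.26% of lost, 13.3% and 6.67% of late kept and 1.89% and 0% of gained regions. Late sonicated H4K16ac lay over 100% of gained regions under 3 kb. Between midpoints, the median distance of lost regions was 7772 bp. The cause of these differences was not tested. Among the 211, 112 concerned single marks by class not named here, of which 93 stayed and 19 moved. No paired analysis was possible because the lists pool the replicates, and for the same reason no replicate could be left out. The unknown depth limits every statement on a region listed at 1 stage.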

Other observations

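Some of the autosomal MSL2 regions lay over tRNA genes, which was noticed after the data were seen and not tested. At 3-4 h 2 of 7 autosomal regions held a tRNA gene and at 11-12 h 4 of 8, against 2 of 238 and 2 of 310 regions on the X. The autosomal regions touched 9 and 12 of 266 autosomal tRNA genes, and those on the X touched 4 of 24 X tRNA genes at each stage. Counted per tRNA gene, the share was thus the larger one on the X. Among the autosomal tRNA genes were those for glutamate in the kept region of 2R, for aspartate beside Sema1a, and for arginine and methionine beside Roc2. On the mitochondrial genome, regions of 2.00 and 11.9 kb were listed at 3-4 h and 1 of 2.50 kb at 11-12 h, and the late one lay inside the longer early one.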
